A study of Mus musculus with 21 samples.

Results

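The mitochondrial ribosome makes the few proteins that the mitochondrial genome encodes, all of them subunits of the respiratory chain or of ATP synthase. Its RNA comes from the mitochondrial genome, while every protein of its small (Mrps) and large (Mrpl) subunit is encoded in the nucleus, made in the cytoplasm and imported. Genes were taken as mitochondrial ribosomal protein genes when their symbol consisted of Mrpl or Mrps, a number and at most 1 letter. The rule found 78 genes among the 53796 listed in each of 3 expression tables, each gene once per table. By what is known of the structure, 26 belong to the small and 51 to the large subunit, with Mrps18a and Mrps30 counted in the large subunit where their proteins sit, and Mrps36 stands outside the ribosome. Of the 78 genes, 48 have a bacterial homologue and 29 are particular to mitochondria, Mrps36 again apart.

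RNA was sequenced from mouse embryonic stem (ES) cells of strain V6.5, and values are FPKM, fragments scaled by transcript length and by library, so that levels of different genes are compared per length. Dot1l KO cells, which carry a knockout of the histone H3K79 methyltransferase gene, were set against control cells labelled WT with a control guide RNA (Ctrl sgRNA), with 3 libraries of each in 2 conditions. In the first, cells were held undifferentiated by 100 U/ml leukemia inhibitory factor (LIF) in a serum medium called SL, over feeder fibroblasts made unable to divide. In the second, cells were plated on gelatin in N2B27 medium with the ROCK inhibitor Y-27632 and then given Wnt3a (50 ng/ml) together with activin A (10 ng/ml), usually for 24 h, which directs them toward primitive streak. Another table holds 3 libraries of ES cells called untreated here, which were also kept with 100 U/ml LIF. Their genotype is labelled Cdk1as/as, an analog-sensitive form of the cell cycle kinase Cdk1, although the series' design text speaks of WT cells. Whether the KO line is 1 clone is not in the labels. Nor do they state that replicates are independent cultures, and the p-values therefore cover only library-to-library spread, which may be technical.

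The transcript of the targeted gene was present in every library labelled Dot1l KO, and below every control library: in LIF 11.2, 8.90 and 10.8 FPKM in KO against 21.2, 20.6 and 24.6 FPKM in control libraries, and 13.5, 12.9 and 14.7 FPKM in KO against 18.5, 17.7 and 19.1 FPKM in control libraries under Wnt3a and activin A. The log2 fold change was -1.04 in LIF (limma adjusted p = 0.0178) and -0.40 under Wnt3a and activin A (limma adjusted p = 0.00462). The sequencing depth is unknown. The sum of FPKM over all genes differed between the groups under Wnt3a and activin A, at 759255 to 792381 in KO and 1087970 to 1144370 in control libraries, which bears on every difference in that condition. With libraries brought to the same sum, Dot1l itself stood at 0.09 under Wnt3a and activin A and no longer passed. One KO library in LIF, replicate 3, stood apart with 28.6% of its summed FPKM in the small RNA gene Mir6236, against 5.25% to 8.31% in the other LIF libraries. Of 8 ES cell markers, 7 were lower in KO in each condition (limma adjusted p under 0.05), but with equal sums 3 stayed lower in LIF, while 3 were lower and 2 higher under Wnt3a and activin A. All 8 primitive streak markers were higher in KO under Wnt3a and activin A in each of 6 scalings. Fibroblast markers, which feeders would bring, summed over 10 genes to 44.7 to 47.6 FPKM in KO and 22.1 to 35.6 FPKM in control libraries in LIF, and to 50.0 to 53.3 FPKM in KO and 39.5 to 43.1 FPKM in control libraries under Wnt3a and activin A. Lum was at 0 in every LIF library and Dcn in all but KO replicate 2.

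Promoters are shown for a few of these genes, whose values moved together in 1 of the comparisons. RefSeq promoters of GRCm38.p6, from 250 bases before to 50 after the start of transcription, matched 69 of the 78 genes. They were searched on both strands for 3 motifs of factors known for nuclear genes of mitochondria: CCGGAAG of ETS factors such as GABPA, GCGCA and GCGC with any 1 base (N) between them for NRF1, and AAGATGGC of YY1. The ETS and YY1 motifs could share the letters AAG, and did so in 0 of these promoters. The examples, for the ETS and NRF1 motifs, are 30-base stretches upstream of the start in that table, with the motif in capitals, from genes whose values are given in the results. That of Mrps16 lies inside the RefSeq gene model, which begins further upstream, and that of Mrps21 overlaps a neighbouring gene (C920021L13Rik).
Mrps16, ETS, chr14:20393546-20393575, minus strand: ttgggggcgctCTTCCGGgcttcaggctct
Mrps18a, ETS, chr17:46110967-46110996, plus strand: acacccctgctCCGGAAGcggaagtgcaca
Mrpl3, ETS, chr9:105053238-105053267, plus strand: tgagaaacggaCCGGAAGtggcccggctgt
Mrps21, NRF1, chr3:95871587-95871616, minus strand: cggaaagtccaGCGCCTGCGCtcagcaccg
Mrpl12, NRF1, chr11:120484545-120484574, plus strand: gtattgtctccGCGCCTGCGCgtcgcaccg

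The ETS letters stood in 26 of the 69 promoters (37.7%), against 20.9% of genes tested under Wnt3a and activin A and 9.93% of all genes with a promoter in the table. The YY1 letters stood in 12 (17.4%), against 5.66% and 3.19%, and the NRF1 letters in 13 (18.8%), against 12% and 5.19%. In all, 43 promoters held at least 1 of the 3 motifs and 26 held none. A match describes letters and is no evidence that a factor binds there. Mrpl46 and Mrps11 lie head to head with 41 bases between their gene models, chr7:78783090-78783130 of GRCm38.p6, shown on the plus strand toward Mrps11: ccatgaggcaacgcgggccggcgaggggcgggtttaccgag. None of the 3 motifs stood in this gap. The Mrps11 promoter did hold the YY1 letters outside the gap, 107 bases before its start, within the Mrpl46 gene model.

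In the untreated ES cells all 78 genes were expressed, from 9.59 ± 2.17 FPKM for Mrps33 to 204.6 ± 3.22 FPKM for Mrpl15 (SD, n = 3), a protein of the large subunit. The next highest were Mrpl18 with 175, 138 and 207 FPKM in the 3 libraries, Mrpl42 with 140.2, 189 and 140.0 FPKM, Mrpl2 with 153, 122 and 149 FPKM, and Mrps5 with 135, 151 and 122 FPKM. Mrpl15 varied least, 1 library of Mrpl18 reached its level, and the ranges of Mrpl18, Mrpl42, Mrpl2 and Mrps5 overlapped. At the low end, above Mrps33, were Mrps36 at 10.9 ± 3.43 FPKM, Mrpl23 at 12.7 ± 0.696, Mrpl46 at 13.6 ± 0.859 and Mrps11 at 14.3 ± 1.396 FPKM, and these also overlapped from one to the next. The median of the 78 means was 35.6 FPKM, and 33.6 FPKM without replicate 2. Levels spread widely for proteins that are thought to enter the ribosome in equal numbers, apart from Mrpl12, which is present in several copies.

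The first question was what the Dot1l KO changes in undifferentiated cells, and for these genes it was little. None of the 78 genes passed the test in either direction in LIF (limma on log2(FPKM + 1), Benjamini-Hochberg adjusted p under 0.05 over 13153 genes), where 4.41% of all genes tested passed, 3.45% lower and 0.958% higher. At an unadjusted p under 0.05 there were 18 (23.1%), against 24.5% of all genes tested. Under the other 5 scalings there were 10 or 11 (12.8% or 14.1%), against 19% to 21% of all genes tested. The median log2 fold change (KO minus control) was -0.09, against -0.07 over all genes tested. Of the 78 values 60 were negative, as were 8143 of the 13153 over all genes. Under the other 5 scalings 33 to 43 of the 78 were positive. Members ranged from -0.48 for Mrps36 to 0.24 for Mrpl32. In 23 genes all KO libraries lay below all control libraries (22.5% of all genes tested), in 2, Mrpl32 and Mrpl15, above (8.66%), and in 53 the groups overlapped. In bulk libraries such as these, fewer cells of a type and less RNA per cell cannot be told apart.

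Mrpl42, a protein particular to the mitochondrial large subunit, came nearest to the threshold in LIF. It had 193, 191 and 196 FPKM in KO libraries against 226, 216 and 215 FPKM in control libraries (limma adjusted p = 0.0662). Mrps36, now known mainly as a part of the α-ketoglutarate dehydrogenase complex and not of the ribosome, had 17.9, 15.7 and 15.6 FPKM in KO against 24.6, 19.9 and 25.6 FPKM in control libraries (limma adjusted p = 0.0713). In both genes every KO library lay below every control library, without passing the test. The authors' deposited table called Mrps36 (q = 0.0265) and Mrpl54 (q = 0.0400) lower in LIF and no other of the 78, where it called 3.54% of its tested genes lower and 3.2% higher.

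Under Wnt3a and activin A, the KO libraries held lower values of nearly the whole set as the FPKM were deposited. Of the 78 genes, 72 were lower in KO and 0 higher (limma adjusted p under 0.05 over 12770 genes), where 49.1% of all genes tested passed, 29.5% lower and 19.6% higher. The median of the 78 group means was 63.6 FPKM in KO and 101.9 FPKM in control libraries. The median log2 fold change was -0.62, against -0.08 over all genes tested, and every value was negative, from -1.06 for Mrps16 to -0.10 for Mrpl1. In 74 genes all KO libraries lay below all control libraries (34.8% of all genes tested), and in the other 4 the groups overlapped. The authors' deposited table called 65 of the 78 lower and none higher, against 25.3% and 19.8% of its tested genes.

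How many were lower depended on how the libraries were scaled, and this limits each count in this condition. With every library brought to the same summed FPKM, leaving out Mir6236 (an alternative chosen after seeing the data), 27 of the 78 were lower and 9 higher, while 8.07% of all genes tested were lower and 49% higher. That scaling moved the median of all genes to 0.37 and that of the 78 genes to -0.10, so the distance between the medians was -0.47, against -0.54 as deposited. Median-of-ratios rescaling gave 65 lower, where 24.7% of all genes tested were lower and 24% higher. Quantile normalization gave 44 lower and 2 higher, against 22.6% and 21.5% of all genes tested. Removal of a smooth trend with gene span and level gave 31 lower and 4 higher, against 17.5% and 19.7% of all genes tested. The last matters because the 78 genes are short and abundant, with a median span of 7.69 kb and a median level of 86.6 FPKM, against 21.4 kb and 11.6 FPKM over all genes tested in this condition, and because log2 fold changes over all genes ran with span (Spearman's rho 0.40) and against level (rho -0.33), across genes that are not independent. Under all 6 scalings, the deposited one included, 20 genes were lower in KO, 8 of the small and 12 of the large subunit. The share of all genes tested that was lower under all 6 was not computed, so this count has no background to be set against.

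**Figure D1:**
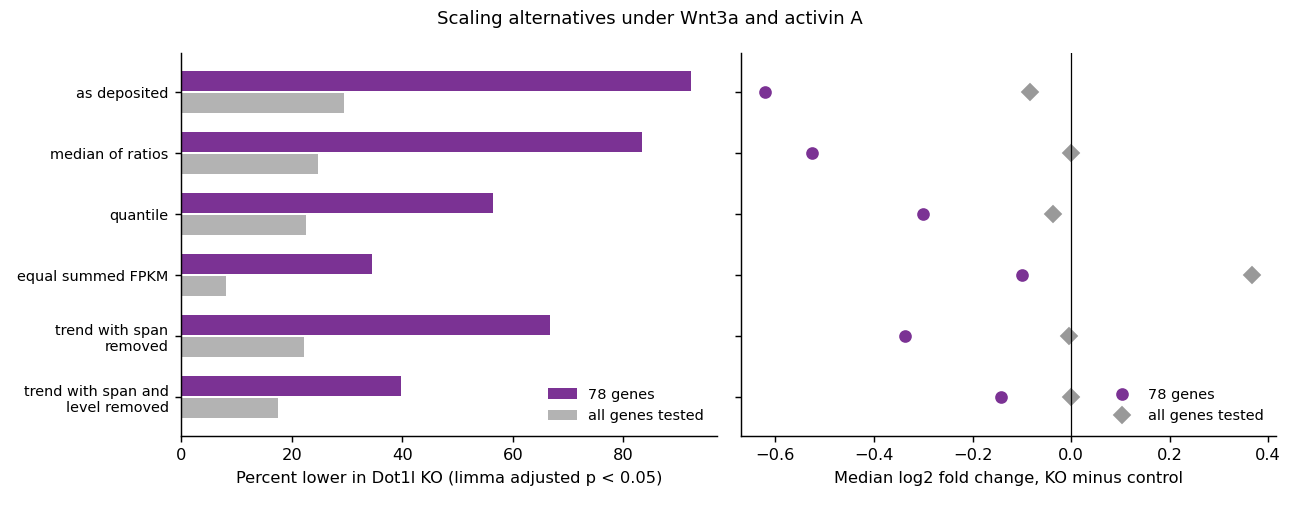
Left, percent of the 78 genes (purple) and of all genes tested (grey) that were lower in Dot1l KO under Wnt3a and activin A (limma adjusted p under 0.05) for 6 scalings. Right, the median log2 fold change (KO minus control) of both sets, which stays below the median of all genes in each scaling, from a distance of -0.54 as deposited to -0.14 with the trend with span and level removed.

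The 10 largest falls under Wnt3a and activin A were in Mrps16, Mrps34, Mrpl2, Mrps21, Mrpl14, Mrpl28, Mrps35, Mrpl24, Mrpl54 and Mrpl57, and all of these but Mrpl57 were among the 20 genes lower under every scaling. Mrps16, a small subunit protein with a bacterial homologue, had 63.3, 73.7 and 72.8 FPKM in KO against 143, 147 and 149.5 FPKM in control libraries. The groups stood far apart, with a log2 fold change of -1.06 (SE 0.07, limma adjusted p = 0.00013), and of -0.54 with equal summed FPKM. Mrps34, a small subunit protein particular to mitochondria, had 68.7, 74.6 and 74.3 FPKM in KO against 152, 139 and 155 FPKM in control libraries (-1.02, SE 0.06). Mrps21, which has a bacterial homologue, had 173, 202 and 209.7 FPKM in KO against 387, 391 and 393 FPKM in control libraries (-1.004, SE 0.08). In each of these the control libraries were close together and about double the KO values on the deposited scale.

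Within the large subunit, Mrpl28 had 109, 112 and 115 FPKM in KO against 226, 216 and 203 FPKM in control libraries (log2 fold change -0.94, SE 0.05). Mrpl54, particular to mitochondria, had 117, 123 and 128 FPKM in KO against 246, 216 and 233 FPKM in control libraries (-0.91, SE 0.06). Mrps35 of the small subunit had 151, 169 and 156 FPKM in KO against 293, 303 and 302 FPKM in control libraries (-0.91, SE 0.05). None of these groups overlapped, and the limma adjusted p of the 10 genes lay between 8.82e-05 and 0.000779. For Mrpl2, Mrpl14, Mrpl24 and Mrpl57 the level is less certain, since each gene overlaps another expressed gene (Klc4, Tmem63b, Rrnad1 and Ska3) with which it could exchange reads. Mrpl2, a core protein of the large subunit, had 176, 163 and 147 FPKM in KO against 309, 335 and 343 FPKM in control libraries (-1.02), yet it was not called in the authors' deposited table (q = 0.254). In all, 20 of the 78 genes overlap a gene at 1 FPKM or more. Of the 32 genes that overlap none and share their listed locus with none, 30 were lower in KO under Wnt3a and activin A on the deposited scale. In LIF 0 of the 32 were lower. Of all genes tested, 29.5% and 3.45% were lower in these conditions, and the same count over all genes alone at their locus was not made.

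**Figure D2:**
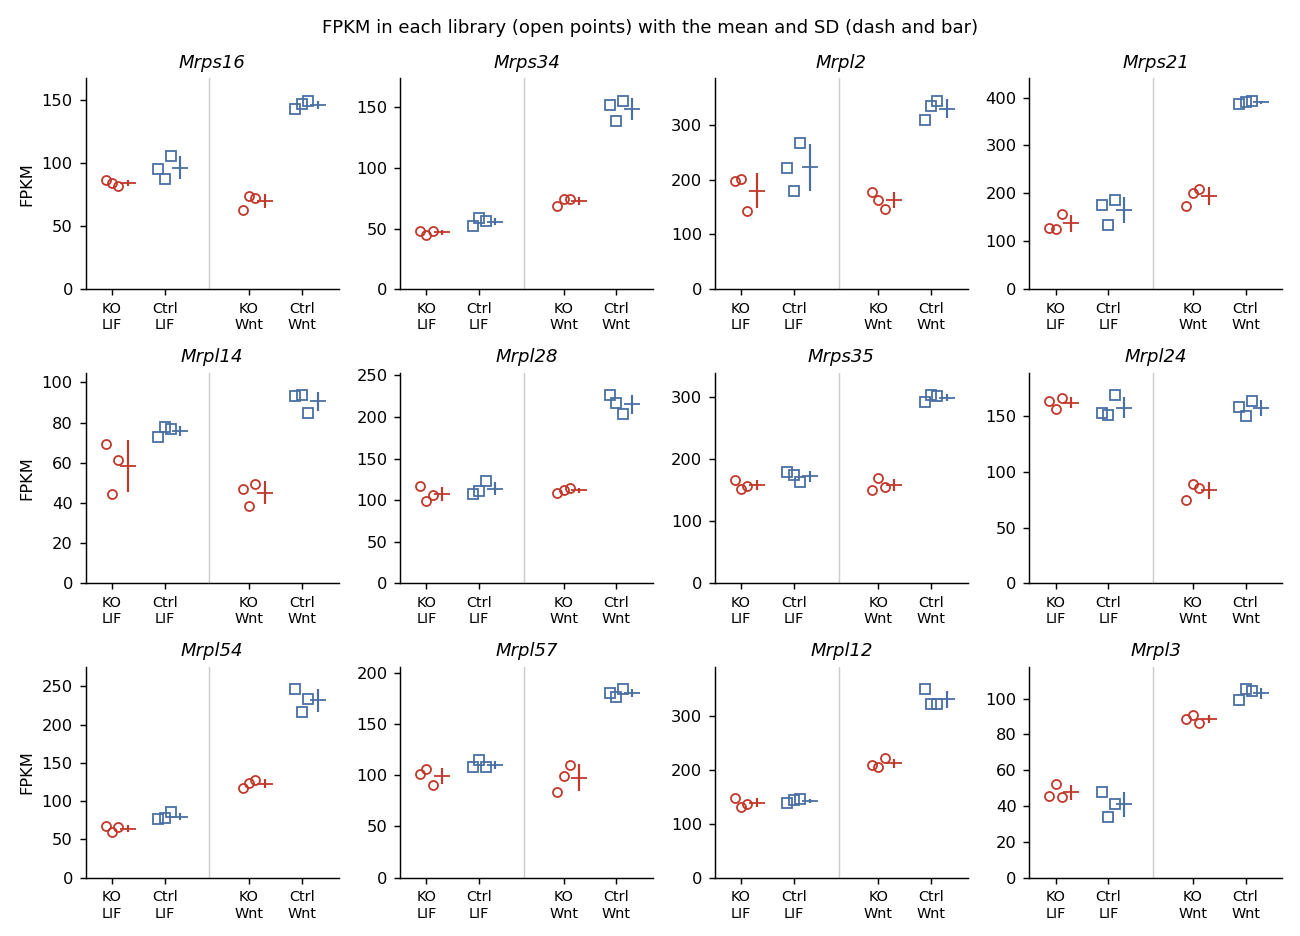
FPKM in each library (open points) with the group mean and SD (n = 3) for the 10 genes with the largest falls under Wnt3a and activin A, and for Mrpl12 and Mrpl3, with KO in red circles left of control (Ctrl) in blue squares and LIF left of Wnt3a and activin A (Wnt). The groups lie close or overlap in LIF and are apart under Wnt3a and activin A, with the smallest gap in Mrpl3.

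By role, the stalk of the large subunit that recruits translation factors gave unequal values. Mrpl12, which forms the stalk and also binds the mitochondrial RNA polymerase, had 209, 206 and 221 FPKM in KO against 349, 321 and 321 FPKM in control libraries under Wnt3a and activin A (log2 fold change -0.64, limma adjusted p = 0.000258), but -0.12 with equal summed FPKM and 0.02 with the trend with span and level removed, short of the threshold. Mrpl11, at the stalk base, had 35.4, 33.9 and 35.98 FPKM in KO against 58.8, 61.3 and 60.3 FPKM in control libraries (-0.76, limma adjusted p = 0.000123) and was lower under every scaling. Mrpl10, which anchors Mrpl12, had 51.5, 56.4 and 62.8 FPKM in KO against 66.6, 65.3 and 70.2 FPKM in control libraries. It barely passed (-0.24, limma adjusted p = 0.0466), missed the threshold when any library but KO replicate 3 was left out, and turned to 0.27 with equal summed FPKM, past the threshold. Mrpl3, a protein near the peptidyl transferase center, had 88.7, 90.7 and 86.3 FPKM in KO against 99.3, 105 and 104 FPKM in control libraries. Its fall on the deposited scale (-0.21, limma adjusted p = 0.0094) turned to 0.30 with equal summed FPKM and 0.15 with quantile normalization, past the threshold in both.

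At the decoding center of the small subunit, Mrps12 had 117, 110.3 and 117 FPKM in KO against 210.2, 202 and 188 FPKM in control libraries under Wnt3a and activin A (-0.79, limma adjusted p = 0.000173). With the trend with span and level removed Mrps12 was at -0.11 and did not pass, while it passed under the other 5 scalings. Mrps24 fell by 0.85 and Mrps28 by 0.77 on the log2 scale, and both were lower under every scaling. The related Mrps18 genes differed among themselves. Mrps18a, whose protein sits in the large subunit, had 55.3, 70.4 and 65.2 FPKM in KO against 108, 109 and 117 FPKM in control libraries (-0.81). Mrps18b had 137, 133 and 153 FPKM in KO against 181, 200 and 173 FPKM in control libraries (-0.39), and Mrps18c 82.0, 96.9 and 65.9 FPKM in KO against 123, 121 and 116 FPKM in control libraries (-0.57). No group overlapped in the 3 genes. Mrps18a passed under every scaling, though it overlaps Rsph9. Mrps18b and Mrps18c were lower in 2 of 6 scalings: with equal summed FPKM Mrps18b was at 0.14 and Mrps18c at -0.049, and with the trend with span and level removed at 0.17 and -0.057, all short of the threshold. The differences between these genes were not tested.

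Proteins with roles beside the core of the ribosome were lower in KO on the deposited scale too. Mrpl58, a peptidyl-tRNA hydrolase that frees stalled ribosomes, had 111, 142 and 122 FPKM in KO against 233, 212 and 210.1 FPKM in control libraries (-0.81, limma adjusted p = 0.00108). Mrpl41 was at -0.68, Mrpl55 at -0.75, and Mrps30, which sits in the large subunit, at -0.52, each with KO libraries below all control libraries. With equal summed FPKM these 3 did not pass, while Mrpl58 did (-0.28). Mrps36, the gene outside the ribosome, had 22.6, 21.2 and 25.5 FPKM in KO against 38.9, 33.3 and 28.3 FPKM in control libraries (-0.51, limma adjusted p = 0.0187). It missed the threshold without control replicate 2, KO replicate 1 or KO replicate 2 (limma adjusted p of 0.052 to 0.0606), and was at -0.0064 with equal summed FPKM. Mrpl47 had 59.3, 51.9 and 47.2 FPKM in KO against 59.8, 77.3 and 70.4 FPKM in control libraries (-0.38, limma adjusted p = 0.0421), with its highest KO and lowest control libraries nearly touching. Without control replicate 2, 3 or KO replicate 2 or 3, Mrpl47 no longer passed (limma adjusted p of 0.103 to 0.115). It was lower in 1 of 6 scalings, the deposited one, and stood at 0.13 with equal summed FPKM, short of the threshold.

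Genes that lie high or low in untreated ES cells were among those lower on the deposited scale. Mrpl15, the highest there, had 167, 146 and 159 FPKM in KO against 243, 249 and 235 FPKM in control libraries under Wnt3a and activin A (-0.62). It was lower in 3 of 6 scalings and stood at -0.10 with equal summed FPKM, short of the threshold. Mrps33, the lowest, had 13.97, 13.1 and 13.5 FPKM in KO against 15.4, 29.6 and 25.5 FPKM in control libraries (-0.70, SE 0.23, limma adjusted p = 0.0442), with 1 control library near the KO values. It missed the threshold when any library but control replicate 1 was left out, and under each of the other 5 scalings, with -0.21 at equal summed FPKM. The head-to-head pair moved in the same direction by unequal amounts: Mrpl46 had 42.2, 49.8 and 43.0 FPKM in KO against 74.0, 80.4 and 75.1 FPKM in control libraries (-0.75), and Mrps11 had 58.4, 53.3 and 56.5 FPKM in KO against 71.3, 71.9 and 74.8 FPKM in control libraries (-0.37). Mrpl46 was lower under every scaling, whereas Mrps11 stood at 0.15 with equal summed FPKM.

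The genes that did not pass under Wnt3a and activin A were Mrps23, Mrpl18, Mrps2, Mrpl19, Mrpl1 and Mrpl39, named for that reason after their values were seen. Mrpl18, the second highest gene in ES cells, had 345, 308 and 278 FPKM in KO against 320.1, 330.3 and 444 FPKM in control libraries, so its groups overlapped. Mrpl1 had 9.32, 8.47 and 8.67 FPKM in KO against 9.45, 9.77 and 9.23 FPKM in control libraries, and Mrpl39 had 31.5, 32.2 and 34.5 FPKM in KO against 39.4, 33.6 and 32.5 FPKM in control libraries. Mrpl1 was the lowest of the 78 in both groups of control libraries, though 6 genes were lower than it in untreated ES cells.

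Counts and medians were close between the subunits and between genes of either origin on the deposited scale. Of the small subunit, 24 of 26 genes were lower in KO under Wnt3a and activin A (median log2 fold change -0.61), and of the large subunit 47 of 51 (-0.62). Among genes with a bacterial homologue 44 of 48 were lower (-0.62), and among those particular to mitochondria 27 of 29 (-0.60). By span, the 26 shortest genes, up to 5.23 kb long, had a median of -0.75 (25 lower), the 26 in the middle -0.58 (24 lower) and the 26 longest, from 9.54 to 122 kb, -0.59 (23 lower). Genes with the ETS letters in their promoter had a median of -0.71 and those without -0.58. The medians were -0.64 and -0.59 for the NRF1 letters, and -0.57 and -0.62 for the YY1 letters. With quantile normalization 23 of 48 genes with a bacterial homologue (-0.22) and 21 of 29 particular to mitochondria (-0.36) were lower. With the trend with span and level removed 13 of 26 small subunit genes (-0.25) and 18 of 51 large subunit genes (-0.12) were lower. These medians are descriptions, and their differences were not tested.

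**Figure D3:**
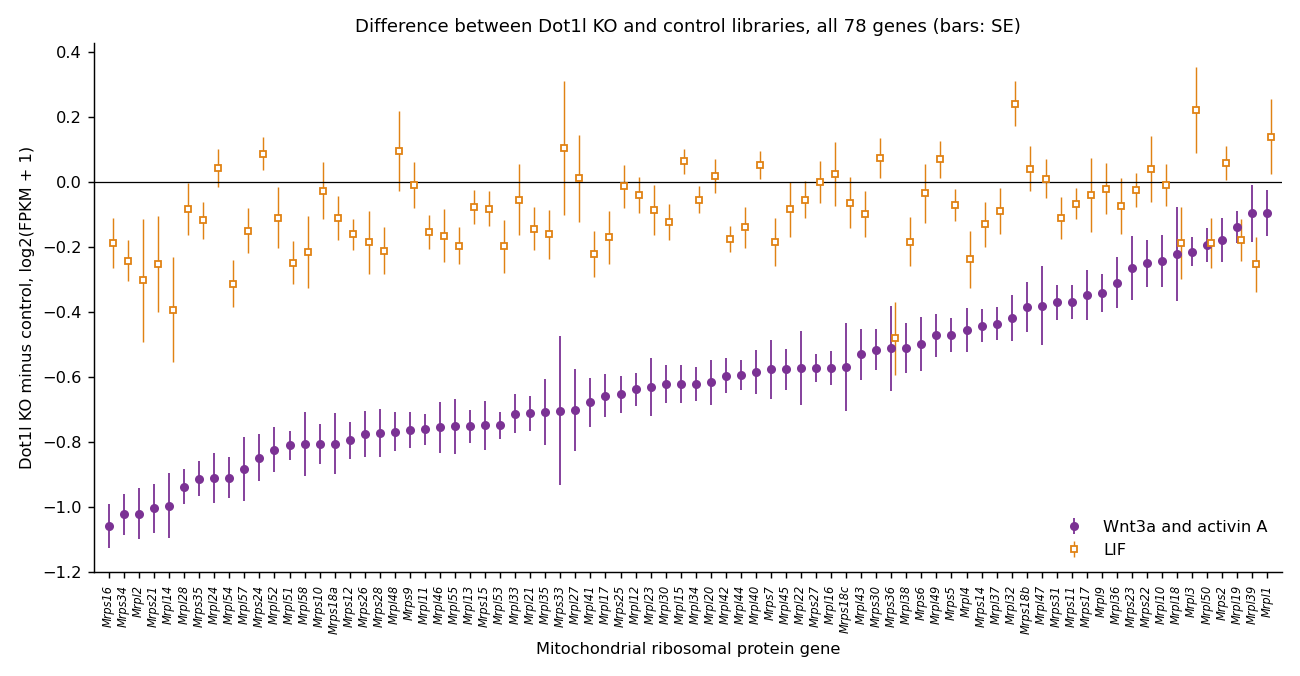
Log2 fold change (KO minus control, log2(FPKM + 1)) with its SE for each of the 78 genes, ordered by the value under Wnt3a and activin A (filled circles), with the value in LIF (open squares). All values under Wnt3a and activin A are negative, from -1.06 to -0.10, while those in LIF lie between -0.48 and 0.24.

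The difference between the conditions was tested as an interaction over 12 libraries (KO minus control under Wnt3a and activin A, less the same in LIF). Of the 78 genes, 64 had a lower and 0 a higher interaction (limma adjusted p under 0.05), where 38.3% of 11783 genes tested in both conditions passed, 20.7% lower and 17.6% higher. The median was -0.56, against -0.02 over all genes. Mrpl24 gave the most negative value, -0.95 (SE 0.10): it had 74.8, 89.3 and 85.5 FPKM in KO against 158, 149.9 and 164 FPKM in control libraries under Wnt3a and activin A, but 163, 156 and 166 FPKM in KO against 153, 151 and 168 FPKM in control libraries in LIF. Mrps24 had 62.9, 57.3 and 68.6 FPKM in KO against 114, 115 and 112 FPKM in control libraries under Wnt3a and activin A, and 135, 128 and 138 FPKM in KO against 122, 125 and 130.1 FPKM in control libraries in LIF (interaction -0.93, SE 0.09). For both genes the groups were far apart under Wnt3a and activin A and close in LIF. Mrpl48, particular to mitochondria, had 23.2, 21.5 and 22.3 FPKM in KO against 40.7, 38.5 and 37.1 FPKM in control libraries under Wnt3a and activin A, and 27.4, 20.2 and 24.4 FPKM in KO against 22.6, 20.4 and 24.0 FPKM in control libraries in LIF, where the groups overlapped. Mrpl48 overlaps Rab6a. With equal summed FPKM 11 genes were lower and 3 higher in the interaction, so its count depended on the scaling as well. Of all genes tested, 4.96% were lower and 42.4% higher under that scaling.

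Summed over the 78 genes, the level was 6701 ± 162 FPKM in KO and 10558 ± 131 FPKM in control libraries under Wnt3a and activin A, and 6500 ± 113 FPKM in KO and 6970 ± 245 FPKM in control libraries in LIF (SD, n = 3 each). In untreated ES cells the sum was 3798 ± 63.5 FPKM. As a share of all summed FPKM the genes held 0.862% in KO and 0.951% in control libraries under Wnt3a and activin A, and 0.719% in KO and 0.798% in control libraries in LIF. By library, the shares under Wnt3a and activin A were 0.835%, 0.858% and 0.895% in KO against 0.967%, 0.909% and 0.976% in control libraries. In that condition the share thus differed far less than the sum, though the groups still did not overlap. In LIF the shares were 0.792%, 0.772% and 0.592% in KO against 0.776%, 0.809% and 0.810% in control libraries, and the groups overlapped. The lowest, KO replicate 3, is the library with 28.6% of its sum in Mir6236, which was not left out of these shares. How libraries were scaled within and between the 3 tables is not stated, so levels in the 2 conditions and in untreated ES cells are given side by side with no test between them.

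**Figure D4:**
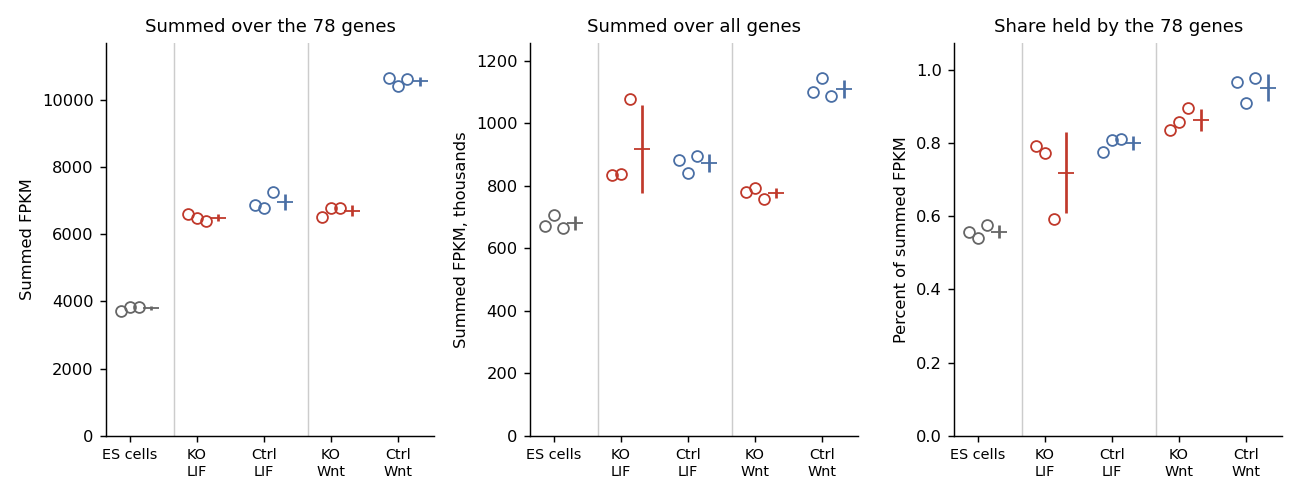
Summed FPKM of the 78 genes (left), summed FPKM of all genes (middle) and the percent of the total held by the 78 genes (right), for each library (open circles) with the group mean and SD (n = 3), with KO in red left of control (Ctrl) in blue. Under Wnt3a and activin A (Wnt) the sum over the 78 genes averages 6701 FPKM in KO and 10558 FPKM in control libraries, and the share 0.862% in KO and 0.951% in control libraries.

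Proteins of the mitochondrial ribosome that carry other names were mostly lower under Wnt3a and activin A, with 5 of 6 lower in KO, 0 higher and a median log2 fold change of -0.84, and still 5 lower with equal summed FPKM (median -0.32). Gadd45gip1 averaged 22.2 ± 0.698 FPKM in KO and 47.2 ± 3.85 FPKM in control libraries (-1.05), and Chchd1 131 ± 5.01 FPKM in KO and 253 ± 10.2 FPKM in control libraries (-0.94, SD, n = 3 each). Aurkaip1 (-0.90) and Dap3 (-0.79), both of the small subunit, were lower too, as was Ndufab1, which also serves in respiratory complex I. Ptcd3 did not pass under Wnt3a and activin A but was higher in KO in LIF, at 41.3 ± 1.79 FPKM in KO and 33.0 ± 0.417 FPKM in control libraries (limma adjusted p = 0.0366), in each of 6 scalings.

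Of 23 factors that assemble the mitochondrial ribosome or modify its RNA, 13 were lower and 0 higher in KO under Wnt3a and activin A (median -0.45), and 0 passed in LIF. The largest falls were in Fastkd2 (-0.90), the ribosomal RNA-binding Ngrn (-0.80), the small subunit assembly factor Rbfa (-0.78) and the helicase Dhx30 (-0.72). With equal summed FPKM 3 were lower and 3 higher and the median turned to 0.05, with Ngrn and Rbfa among the lower. Under that scaling 8.07% of all genes tested were lower and 49% higher, and their median was 0.37. Among translation factors 5 of 15 (33.3%) were lower and 2 (13.3%) higher (median -0.15), which is near the 29.5% and 19.6% of all genes tested. The elongation factor Tsfm averaged 36.3 ± 3.67 FPKM in KO and 71.1 ± 0.434 FPKM in control libraries (-0.95), Slirp was at -0.63 and Tufm at -0.49, while the initiation factor Mtif2 (0.35) and the elongation factor Gfm1 (0.20) were higher. With equal summed FPKM 1, Tsfm, was lower and 8 higher (median 0.34), again close to all genes tested. Of 17 mitochondrial aminoacyl-tRNA synthetases 7 (41.2%) were lower, led by Fars2 (-1.05) and Cars2 (-0.82), and 1, Nars2 (0.74), higher; with equal summed FPKM 2, Fars2 and Cars2, were lower and 4 higher (median 0.19).

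Genes of mitochondrial transcription and DNA upkeep had 3 of 10 members (30%) lower and 1 (10%) higher under Wnt3a and activin A, close to the 29.5% lower of all genes tested. The RNA polymerase Polrmt averaged 27.8 ± 2.45 FPKM in KO and 53.5 ± 3.29 FPKM in control libraries (-0.92), Ssbp1 was at -0.64 and Tefm at -0.51, and the packaging factor Tfam was higher (0.17). With equal summed FPKM 1, Polrmt, was lower and 3 higher (median 0.09), where 8.07% of all genes tested were lower and 49% higher (median 0.37). Among transcription factors known for such genes, Gabpa, of the ETS family, averaged 47.2 ± 8.38 FPKM in KO and 25.1 ± 3.78 FPKM in control libraries (0.88, limma adjusted p = 0.0053). Yy1 (0.32) and Myc (0.23) were higher as well, all 3 in each of 6 scalings, while Pprc1 (-0.44) and Esrra (-0.29) were lower as deposited but at 0.07 and 0.19 with equal summed FPKM. In LIF, Myc was lower in KO (-0.47) as deposited and did not pass under the other 5 scalings. The other 3 factors tested in this list under Wnt3a and activin A did not pass.

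Genes with symbols of the cytoplasmic ribosome moved in the same direction under Wnt3a and activin A, with 90 of 98 tested lower and 4 higher in KO (median log2 fold change -0.89). They were taken by a symbol pattern that also matches other genes, such as kinases of the Rps6k family, which are not ribosomal proteins. With equal summed FPKM 79 were lower and 6 higher (median -0.37), and with the trend with span and level removed 22 were lower and 10 higher (median -0.09). Of all genes tested, 29.5% were lower and 19.6% higher as deposited, and 8.07% and 49% with equal summed FPKM. With the trend with span and level removed these shares were 17.5% and 19.7%, so the count of lower genes came near that of all genes. In LIF 16 of 101 were lower and 1 higher (median -0.19), but 2 lower with equal summed FPKM, against 3.45% and 1.07% lower of all genes tested. These genes held 18.2% of summed FPKM in KO and 24.5% in control libraries under Wnt3a and activin A. Of 13 protein genes encoded in mitochondria, those that the mitochondrial ribosome translates, 7 had a mean of at least 1 FPKM. In each KO and control library of both conditions 6 of the 13 stood at exactly 0, and in untreated ES cells 6 or 7 did. Why they stood at 0 was not tested, and it limits what the values of the 7 can show. Under Wnt3a and activin A 3 of these were higher and 0 lower in KO as deposited (median 0.25), and 6 or 7 were higher under the other 5 scalings (7 with equal summed FPKM, median 0.78), with mt-Co1 at 1435 ± 72.2 FPKM in KO and 943 ± 20.5 FPKM in control libraries, and in LIF 5 of 7 were higher. No scaling gave a lower one in either condition. The ES cell, primitive streak and fibroblast markers given above moved between the same groups, and their part in the values of the 78 genes was not tested.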

How the data were processed

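The authors' deposited tables hold FPKM per gene and library, with the authors' p-value and q-value in the KO tables. Cufflinks 2.2.1, Cuffdiff and the aligner STAR 2.5.4a are named per the submitters' processing notes, as are the builds mm9 and GRCm38, with no role given. How libraries were scaled and whether strand was used is not stated in the labels. FPKM is relative to each library's total or scaling, so abundant genes shift all others. Depth is unknown, and limits the precision of low genes.

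Each KO table was fitted alone with limma 3.58.1 (R 4.3.3) with an intensity trend on log2(FPKM + 1). Genes averaging under 1 FPKM across the 6 libraries were dropped; all 78 members stayed. Tests were two-sided, Benjamini-Hochberg adjusted over all genes, with a threshold of 0.05. Fold changes on this scale understate changes of low genes. The interaction used 12 libraries. The fit was checked on simulated data. Groups and replicates came from sample titles. Spans and coordinates are those of RefSeq GRCm38.p6 for 36986 of 53796 genes, matched by symbol where the gene overlapped its listed locus, and the listed locus otherwise. Members and lists were chosen with earlier results of these data known. Named were, per comparison, up to 10 members past the threshold per direction with groups not overlapping, 5 per direction for the interaction, members with a given role, the 5 highest and 5 lowest in ES cells, and up to 4 genes per other list. Alternatives were another pseudocount, no filter, other scalings, no trend, a replicate block and each library left out, plus equal summed FPKM, chosen after seeing the data. The ChIP peak lists were not used here. Figures were drawn with matplotlib 3.10.9.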

Additional observations from a re-analysis of the deposited data

Results flagged for a closer look

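The difference between KO and control libraries differed between the conditions by the interaction test for 64 of the 78 genes, all lower under Wnt3a and activin A than in LIF, and for 0 in the other direction, where 20.7% of all genes tested were lower and 17.6% higher. With equal summed FPKM it was 11 lower and 3 higher, where 4.96% of all genes tested were lower and 42.4% higher. With quantile normalization it was 39 lower and 1 higher, against 15.1% and 16.8% of all genes tested. The 5 most negative interactions were -0.95 for Mrpl24, -0.93 for Mrps24, -0.87 for Mrps16, -0.86 for Mrpl48 and -0.85 for Mrpl28 (limma adjusted p between 3.6e-05 and 0.000912).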

How the results depend on the processing

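Under Wnt3a and activin A all medians stayed negative. The median log2 fold change moved to -0.53 with median-of-ratios rescaling, -0.30 with quantile normalization (44 lower, 2 higher), -0.14 with the trend with span and level removed (31 lower, 4 higher), -0.34 with the trend with span removed (52 lower) and -0.10 with equal summed FPKM (27 lower, 9 higher). Of the 72 calls, 44, 30, 51 and 27 were kept in these last 4 settings, and 65 with median-of-ratios rescaling. With the trend with span removed, 22.3% of all genes tested were lower and 19.8% higher. A pseudocount of 0.1 gave 72 lower, no filter on low values 69 and limma without a trend 69, against 29.7%, 13.1% and 28.8% of all genes. Leaving out 1 library gave 67 to 69 lower and medians of -0.64 to -0.60, where 25.4% to 26.6% of all genes were lower. In the interaction, quantile normalization gave 39 lower and 1 higher (median -0.29), where 15.1% of all genes tested were lower and 16.8% higher. The trend with span and level removed gave 20 lower and 1 higher (-0.18), against 12.2% and 14.8% of all genes. The trend with span removed gave 39 lower (-0.34), against 17.3%. Equal summed FPKM gave 11 lower and 3 higher (-0.11), against 4.96% and 42.4%. Without 1 library it was 57 to 63 lower, against 18.2% to 20.1%. In LIF no setting gave a call, but few of all genes tested passed there. Under the other 5 scalings 0.692% to 1.49% were lower and 0.867% to 1.25% higher. Without 1 library at most 0.205% were lower and 0.0985% higher, so a count of 0 says little in those fits. The LIF median turned to 0.011 with quantile normalization and 0.025 with the trend with span and level removed. It was -0.0083 with median-of-ratios rescaling, -0.0047 with the trend with span removed and -0.017 with equal summed FPKM. Without 1 library it was -0.11 to -0.07. The median level in ES cells was 33.6 to 35.8 FPKM when 1 library was left out. The cause of these moves was not tested.

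Under Wnt3a and activin A all 78 values were negative as deposited, but 25 were positive with equal summed FPKM, 21 with the trend with span and level removed, 10 with the trend with span removed and 9 with quantile normalization. Among the genes chosen by the naming rule and lower as deposited, with equal summed FPKM Mrpl10 was at 0.27, Mrpl3 at 0.30, Mrps18b at 0.14, Mrpl47 at 0.13, Mrps5 at 0.050 and Mrps11 at 0.15. With the trend with span and level removed Mrpl12 was at 0.022, Mrpl10 at 0.19, Mrpl3 at 0.045, Mrps18b at 0.17, Mrpl47 at 0.011 and Mrps11 at 0.017. With quantile normalization Mrpl10 was at 0.06, Mrpl3 at 0.15 and Mrps18b at 0.053, and with the trend with span removed Mrpl10 was at 0.047.

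Same-numbered libraries did not deviate together (correlations of -0.012 to 0.062). The labels state no pairing, and such values cannot show whether same-numbered libraries were made together. With the replicate number as a block 69 of the 78 were lower under Wnt3a and activin A (68 of them among the 72), 55 in the interaction and 0 in LIF. Of all genes tested, 26.9%, 18.2% and 0% were lower in these fits.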
